A study of Mus musculus with 8 samples.

Results

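The MAST genes encode microtubule-associated serine/threonine kinases, and all 5 mouse members (Mast1, Mast2, Mast3, Mast4 and Mastl) had a row in the comparison of mouse brain described here. They were found by matching the RefSeq transcript names of the rows to the gene symbols, which gave 5 rows of 15978, 1 for each gene. The family was chosen by the p-value of its Mast3 row, one of the smallest of this comparison, so the differences between genotypes are given below as a description and not as a test. RNA was sequenced from 8 brain samples of male mice on an SJL/Bl6 background. Of these, 5 were from mice that carried a bacterial artificial chromosome (BAC) that held human C9ORF72 including 500 G4C2 repeats, and are called C9-BAC here, and 3 were from wild-type mice. In people, expansion of the repeat causes amyotrophic lateral sclerosis and frontotemporal dementia. The labels name no brain region, age, transgenic line or treatment. Nothing in them says outright that each sample is a separate mouse, so the p-values rest on the spread among samples, which may be technical.

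MAST kinases belong to the AGC group of protein kinases, with PKA, AKT and PKC. Mast1 to Mast4 join a kinase domain to a PDZ domain, which binds the ends of partner proteins such as, for Mast1 and Mast2, syntrophins of the dystrophin complex. Mast1 and Mast3 are known for their expression in neurons, and Mast3 phosphorylates ARPP-16, a striatal form of the ARPP-19 protein. Mastl, also called Greatwall, phosphorylates ENSA and ARPP-19 at mitosis, and the phosphorylated proteins inhibit the phosphatase PP2A when it carries a B55 subunit. Mastl has no PDZ domain.

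The coding stretch that runs from the catalytic loop of the kinase to its metal-binding DFG motif is shown first, because it is the part that all 5 members share and it shows how far their RNAs differ. The sequences are from GENCODE vM21 transcripts on mm10, all genes lie on the minus strand, the bounds take in 1 intron each, and capitals mark the codons of the catalytic loop motif and of DFG.
Mast1, chr8:84921187-84921362: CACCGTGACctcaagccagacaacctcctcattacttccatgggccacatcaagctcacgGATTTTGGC
Mast2, chr4:116313780-116314829: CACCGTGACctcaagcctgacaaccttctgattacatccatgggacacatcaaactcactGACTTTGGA
Mast3, chr8:70785448-70786179: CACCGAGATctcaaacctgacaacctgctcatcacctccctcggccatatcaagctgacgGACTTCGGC
Mast4, chr13:102770810-102772477: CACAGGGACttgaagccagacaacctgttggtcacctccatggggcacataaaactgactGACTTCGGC
Mastl, chr2:23145389-23146046: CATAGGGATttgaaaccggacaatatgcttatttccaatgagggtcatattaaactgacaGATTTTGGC
Over these 69 bases Mast1 and Mast2 were the closest pair, with 60 identical bases, and Mast3 shared 56 with Mast1, 53 with Mast2 and 52 with Mast4. Mastl shared 43 to 47 bases with the others. The catalytic loop and DFG lie 17 codons apart in all 5 genes. From DFG to the APE motif, which ends the activation segment, Mast1 to Mast4 have 37 codons and Mastl has 556, so that a long insert splits the Mastl kinase domain.

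The ligand-binding loop of the PDZ domain is shown because it sets Mast1 to Mast4 apart from Mastl, and it was found in the translated reading frame of those 4 genes. Capitals mark the codons of the loop that holds the end of the partner protein, and each stretch lies within 1 exon.
Mast1, chr8:84916198-84916236: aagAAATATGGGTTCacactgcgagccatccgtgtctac
Mast2, chr4:116309858-116309896: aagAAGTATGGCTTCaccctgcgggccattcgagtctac
Mast3, chr8:70781190-70781228: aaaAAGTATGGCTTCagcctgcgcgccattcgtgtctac
Mast4, chr13:102751423-102751461: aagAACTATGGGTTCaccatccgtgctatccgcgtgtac
Mast2 and Mast3 were the closest pair here, with 35 of 39 bases identical, and Mast3 and Mast4 the most distant, with 28. No window of 50 bases in the transcripts of 1 member occurred in those of another, so reads of that length could be told apart within the family. Windows shared with other genes were 1478 of 4823 for Mast1 (30.6%), all with a GENCODE transcript of Dnase2a that runs into Mast1 on the opposite strand, and 259 of 10587 for Mast4 (2.45%), with Cd180 and 1700099I09Rik on the opposite strand. For Mastl they were 66 of 5541 (1.19%), spread over 335 pairs of gene and strand, and for Mast2 and Mast3 there were 0. The libraries kept strand, per the labels' protocols, but no source used here says whether the counting used it. The Mast1 and Dnase2a rows are therefore uncertain, although in RefSeq the bounds of Dnase2a end 149 bases before Mast1.

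Mast3 was the most abundant member and Mastl the least. The authors' deposited table gives 1 mean normalized count per gene, over both genotypes, and no value per sample, so the spread between samples was not analysed here and levels carry no error. That mean was 2172 for Mast3, 1374 for Mast2, 838.2 for Mast4, 519.6 for Mast1 and 15.3 for Mastl in the authors' deposited table, where the median row has 170.8. The 4 PDZ members thus lay above the median row and Mastl below it, at percentile 17.7 of all rows. Summed over the 8 samples, the Mastl row stands for about 122.2 normalized reads and the Mast3 row for 17376.

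Genes differ in length, so levels between them were compared per kilobase of the longest transcript in the row. Per kilobase, the mean normalized count computed from the authors' deposited table was 510.9 for Mast3, 240.1 for Mast2, 106.7 for Mast1, 78.8 for Mast4 and 2.73 for Mastl. Mast3 was 2.13 times Mast2, 4.79 times Mast1, 6.48 times Mast4 and 187 times Mastl, and it held 54.4% of the family's summed level per kilobase. Of the Mastl transcript 53.5% is untranslated, and with the coding length Mast3 was 94.3 times Mastl. The gap between Mast1 and Mast4 rested on the length used, since per kilobase of coding length they stood at 110.3 and 106.7. Among 53 AGC kinases, the 5 members included, Mast3 ranked 9 and Mastl 52 by this level, with the PKC gene Prkcb first at 4463 and the kinase gene Sgk2 last at 2.64. Reads from introns may be counted in such libraries, which were made without poly(A) selection, and no source used here gives the counting rule.

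**Figure D1:**
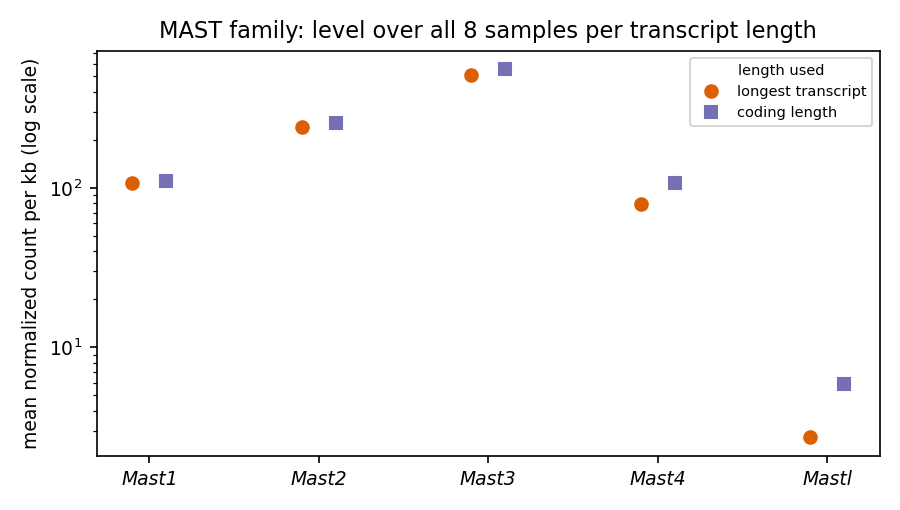
Mean normalized count over all 8 samples divided by length in kilobases (vertical axis, log scale) for each MAST gene, with the longest transcript (circles) or the coding length (squares) as the length. Mast3 stands highest at 510.9 and Mastl lowest at 2.73 with the longest transcript, and Mast1 and Mast4 nearly meet with the coding length.

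The Mast3 row had the largest difference between C9-BAC and wild-type brain in the family. The sources used here do not name the numerator of the fold change, so each sign is as deposited. Values are written as log2 fold change ± standard error. Mast3 (chromosome 8, 70778117 to 70805048, mm10) had a difference of 0.28 ± 0.08 in the authors' deposited table, a fold of 1.21 with a 95% normal interval from 1.08 to 1.36. Its raw (unadjusted) p there was 0.001, rank 6 of the 15944 rows with a p, and its DESeq2 adjusted p 0.9997. The family was selected on these Mast3 values.

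The other members had smaller values of the same sign. Mast2 (chromosome 4, 116306760 to 116464223), also called MAST205, had a difference of 0.10 ± 0.09 in the authors' deposited table (raw p = 0.282). Mast4 (chromosome 13, 102732486 to 103335099), the longest gene of the family at 602.6 kb, had a difference of 0.09 ± 0.10 in the authors' deposited table (raw p = 0.384). For Mast1 (chromosome 8, 84911853 to 84946177), also called SAST for its link to syntrophin, the authors' deposited table gives 0.07 ± 0.11 (raw p = 0.486). Mastl (chromosome 2, 23116539 to 23156024) had 0.03 ± 0.09 in the authors' deposited table (raw p = 0.744). Each of these 4 intervals takes in 0: the widest bounds were a fold of 0.902 for Mastl and 1.22 for Mast4, computed from the authors' deposited table.

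At a DESeq2 adjusted p of 0.05, 0 of 5 members passed in the authors' deposited table, where 0% of the 15944 rows did, and all 5 had an adjusted p of 0.9997. At a raw p of 0.05 it was 1 of 5, Mast3, against 1.5% of all rows (239), or 0.659% counting positive rows (105). All 5 signs were positive in the authors' deposited table, as were 47.5% of all rows (7571). The Mast3 fold change exceeded that of Mast2 by 0.18, of Mast4 by 0.19, of Mast1 by 0.20 and of Mastl by 0.25 on the log2 scale. These differences were not tested, because the rows share the same samples and the table holds no covariance. The standard errors of the authors' deposited table never exceed 0.11, as happens when estimates are shrunken by a prior, a step no source used here records. Shrinkage would pull each fold change towards 0. The pull can differ between rows, so the gaps between members could be understated or overstated. Among rows of like abundance the standard error of Mast3 was low, at percentile 16.1, and that of Mastl high, at 75.7. A low standard error here need not mean a precise value, since the row of Gm38426, at only 2.82 normalized counts, had 0.05.

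**Figure D2:**
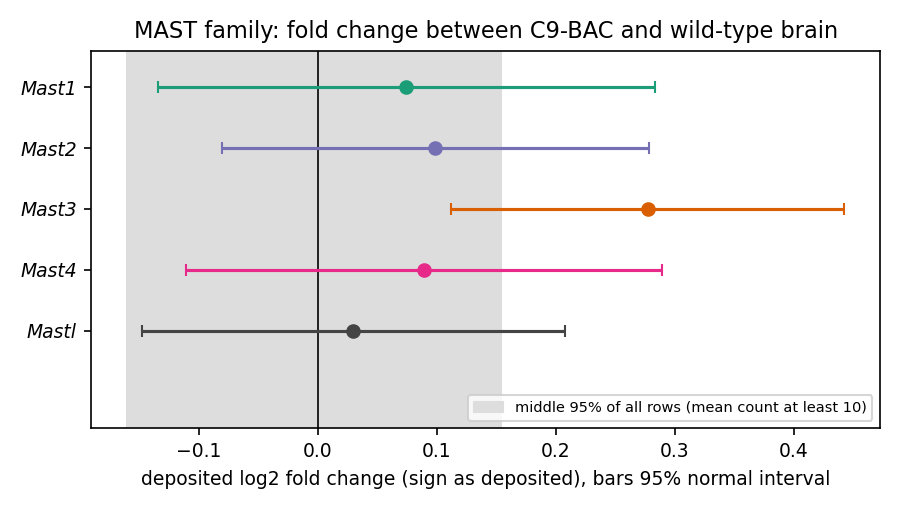
Deposited log2 fold change (horizontal axis, sign as deposited) of each MAST gene, with bars for the 95% normal interval and a grey band for the middle 95% of all rows whose mean normalized count reached 10. Mast3, at 0.28, lies outside the band of -0.16 to 0.15, and the other 4 lie inside it at 0.03 to 0.10.

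Transcript GC content moves with the statistic across the 13627 rows with a known GC content whose mean normalized count reached 10, and the members differ in it. The Wald statistic is the fold change divided by its standard error. With these rows of the authors' deposited table split into 5 equal groups by GC content, the median statistic was -0.556 in the GC-poorest group and 0.352 in the GC-richest. Positive rows made up 20.8% of the former and 69.2% of the latter. Mast3, at 61.9% GC, and Mast1, at 59.9%, lie in the GC-richest group. Mast2 (55.6%) and Mast4 (52.9%) lie in the next, where 62.8% of rows were positive. Mastl, at 40.8%, lies in the GC-poorest group, where its positive sign is in the minority.

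Within their own GC groups the members held different places. Mast3 had the largest statistic of the 2726 rows in its group, 3.29 in the authors' deposited table. Mast1, in the same group, had 0.697 in the authors' deposited table, with 852 rows above it. Mast2 (1.08 in the authors' deposited table) had 308 of 2725 rows above it, and Mast4 (0.871) had 477. Mastl, at 0.327 in the authors' deposited table, had 281 of 2726 rows above it. With a cubic trend on GC content and log length taken off, the statistics were 2.87 for Mast3, 0.921 for Mastl, 0.814 for Mast2, 0.779 for Mast4 and 0.307 for Mast1, so all 5 signs stayed positive, as were 49.6% of the 13627 rows fitted. The order among the 4 smaller values changed, with Mastl moving from last of the 4 to first.

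**Figure D3:**
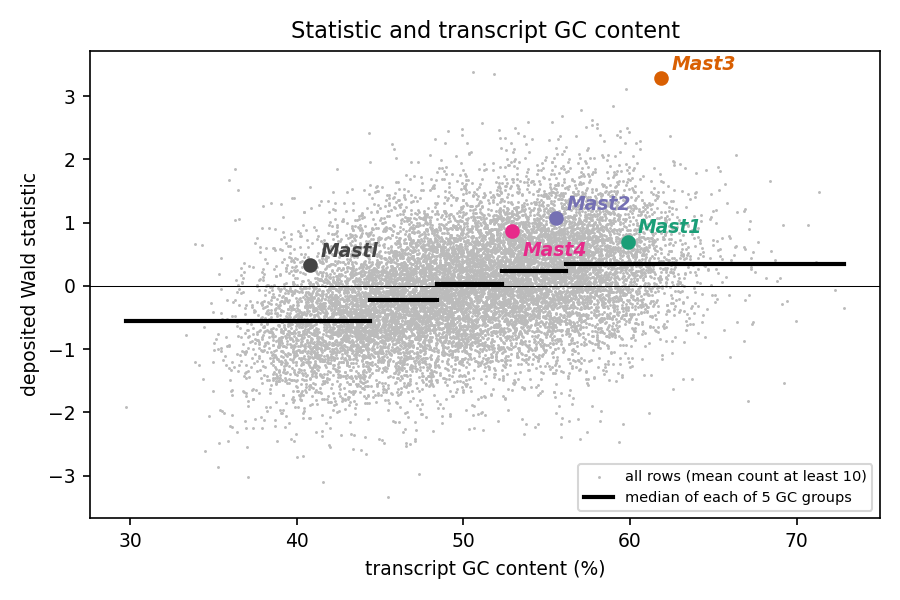
Deposited Wald statistic (vertical axis) against transcript GC content in % (horizontal axis) for all rows whose mean normalized count reached 10, with the MAST genes named and a black line for the median of each of 5 GC groups. Mast3 is the highest point of the GC-richest group, and Mastl lies above the median of -0.556 of the GC-poorest.

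All 5 members lie on the minus strand, and Mast1 and Mast3 share chromosome 8. Position was looked at through the rows next to or overlapping each member. These were 10 rows, of which 1 was positive and 9 were negative in the authors' deposited table, and none had a raw p under 0.05 there (lowest 0.139, DESeq2 adjusted p = 0.9997). Of all rows, 47.5% were positive. By GC content, Pik3r3, Srek1, Acbd5 and Yme1l1 fall in the range of the GC-poorest group, where 20.8% of rows were positive. Gm38426, Ipp and Cd180 fall in that of the next group, where 37.1% were. Dnase2a and 2010320M18Rik fall in the range where 62.8% were positive, and Il12rb1 in that where 69.2% were. The part of GC content in the count of the 10 was not tested. Within 3 rows on either side, 13 of 30 were positive and 17 negative in the authors' deposited table. The 1 row of these 30 with a raw p under 0.05 was 5930438M14Rik, 1485 kb from Mast4, with 0.22 ± 0.07 at a mean of 5.94 normalized counts in the authors' deposited table (raw p = 0.00079). The positive row of the 10 was 2010320M18Rik, 510 bases before Mast3, with 0.15 ± 0.10 in the authors' deposited table. On the other side of Mast3, the interleukin 12 receptor gene Il12rb1 had -0.05 ± 0.07 in the authors' deposited table. Yme1l1, which encodes a mitochondrial protease and overlaps the start of Mastl on the opposite strand, had -0.08 ± 0.10, and Acbd5, a peroxisomal protein gene on the far side, had -0.07 ± 0.10, in the authors' deposited table. Dnase2a, the lysosomal nuclease gene that shares sequence with Mast1, stood at 18.1 normalized counts and a difference of -0.07 ± 0.09 in the authors' deposited table. Gm38426, whose RefSeq bounds overlap Mast1 and end at the same base (84922915) as the GENCODE transcript of Dnase2a, stood at 2.82 normalized counts and a difference of -0.01 ± 0.05 in the authors' deposited table. Beside Mast4 the immune receptor gene Cd180 had -0.02 and the splicing factor gene Srek1 -0.08. The Ipp row after Mast2 had a difference of -0.00404 in the authors' deposited table.

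Each of Mast2, Mast3 and Mast4 has a gene for a regulatory subunit of phosphoinositide 3-kinase within 2 rows, which was noticed after the values were seen. Pik3r3 is the row before Mast2, 3.703 kb away, Pik3r2 lies 1.404 kb from Mast3, and Pik3r1 lies 964.3 kb from Mast4. Their log2 fold changes in the authors' deposited table were -0.10 for Pik3r3, 0.07 for Pik3r2 and -0.01 for Pik3r1, with standard errors of 0.11, 0.11 and 0.09.

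**Figure D4:**
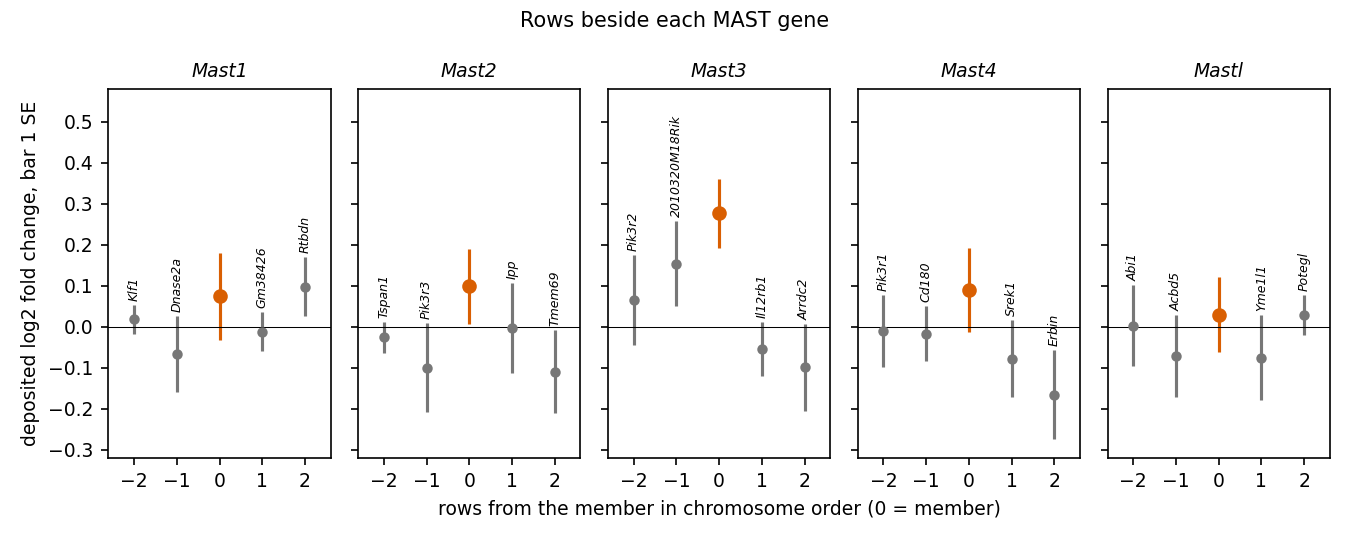
Deposited log2 fold change with bars of 1 standard error (vertical axis) of each MAST gene (orange, at 0) and of the 2 rows on either side of it in chromosome order (grey). The Mast3 value of 0.28 stands above its neighbours, of which 2010320M18Rik is the highest at 0.15.

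The substrates of Mastl and Mast3 and the phosphatase they act on mostly had negative signs. In this module of 10 genes, 2 were positive and 8 negative in the authors' deposited table, median log2 fold change -0.05, against 48.2% positive and a median of -0.00362 for all rows whose mean normalized count reached 10. A raw p under 0.05 was reached by 0 of the 10. With the GC and length trend off, 4 were positive and 6 negative. Of the substrates, Arpp19 stood at a level of 4051 normalized counts and a difference of -0.10 ± 0.09, and Ensa at 2399 and -0.04 ± 0.09, in the authors' deposited table. The catalytic subunit genes Ppp2ca and Ppp2cb had -0.06 and -0.07, and the scaffold genes Ppp2r1a and Ppp2r1b 0.08 and -0.13, in the authors' deposited table. For the B55 subunits the authors' deposited table gives -0.03 for Ppp2r2a, -0.00331 for Ppp2r2b, 0.07 for Ppp2r2c and -0.06 for Ppp2r2d. Standard errors of these 10 values in the authors' deposited table ran from 0.08 for Ppp2ca to 0.11 for Ppp2r1b, and the Wald statistic largest in size was -1.19 (Ppp2r1b). Per kilobase, Ensa (623.8) and Arpp19 (1001) were well above Mastl (2.73), and Ensa was near Mast3 (510.9).

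Other subunits and regulators of PP2A held the 1 gene of all lists with a raw p under 0.05. Strn4, a striatin that joins PP2A to kinases of the STRIPAK complex, had 0.15 ± 0.08 in the authors' deposited table (raw p = 0.0469, DESeq2 adjusted p = 0.9997). Its transcript has 58.6% GC, and its Wald statistic was 1.99 as deposited and 1.61 with the GC and length trend off. Of the 18 genes, 6 were positive and 12 negative, with a median of -0.03, in the authors' deposited table. Next came Ppp2r3a, which encodes a B'' subunit, at -0.13 ± 0.11 in the authors' deposited table. That is 1 of 18 under a raw p of 0.05, where 1.63% of all rows whose mean normalized count reached 10 were.

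Mitotic genes, whose products work with Mastl in dividing cells, were scarce, as Mastl was. Per kilobase they ran from 0.657 (Cdk1) to 7.10 (Top2a), a range that takes in Mastl (2.73). The 12 genes had mean normalized counts of 2.87 (Cdk1) to 52.3 (Mki67) in the authors' deposited table, and 6 of them fell below 10. Of the 6 others, 1 was positive and 5 negative, median log2 fold change -0.04, in the authors' deposited table. Top2a, a DNA topoisomerase of dividing cells, had -0.16 and the proliferation marker gene Mki67 -0.14, both ± 0.10, in the authors' deposited table. How many cells made Mastl RNA and how much each made cannot be told apart in bulk RNA.

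Of 10 genes for syntrophins and the other proteins of the dystrophin complex, 3 were positive and 7 negative in the authors' deposited table, with a median log2 fold change of -0.05. Their median GC content was 47.0%, in the GC group where 37.1% of rows were positive. With the GC and length trend off, the count was still 3 positive and 7 negative. The dystrobrevin gene Dtna had -0.12 ± 0.10, and Sntg2, a syntrophin, -0.12 ± 0.11, in the authors' deposited table. A raw p under 0.05 was reached by 0 of the 10 genes of this complex.

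The other AGC kinases lay on both sides of 0 and none reached the value of Mast3. Of the 46 whose mean normalized count reached 10, 22 were positive and 24 negative, with a median log2 fold change of -0.01, and they ran from -0.18 (Sgk1) to 0.14 (Akt2), in the authors' deposited table. Sgk1, a kinase gene that responds to glucocorticoids, had a standard error of 0.10 and a raw p of 0.0612 in the authors' deposited table, and its relative Sgk3 had -0.16 ± 0.11. In order of the log2 fold change in the authors' deposited table, Mast3 ranked 1 of 53 AGC kinases, Mast2 6, Mast4 7, Mast1 10 and Mastl 19. A raw p under 0.05 was reached by 0 of the 46. The order is a description, because Mast3 was picked for its value.

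Microtubule-associated proteins, from which the family takes its name, numbered 29 rows. The authors' deposited table has 19 of them positive and 10 negative, and their median log2 fold change was 0.02. Their median GC content was 52.5%, in the GC group where 62.8% of rows were positive. With the GC and length trend off, 18 were positive and 11 negative. The dendritic protein gene Map2 had -0.12 ± 0.09, and the stathmin gene Stmn2 0.14 ± 0.10, in the authors' deposited table. Genes of striatal dopamine and PKA signalling, the setting in which Mast3 and ARPP-16 are known, numbered 19 rows. The authors' deposited table has 5 of these positive and 14 negative, and their median was -0.01, against 48.2% positive among all rows whose mean normalized count reached 10. With the GC and length trend off, 8 were positive and 11 negative. The largest of them were the phosphatase gene Ptpn5 (STEP), at 0.14 ± 0.11, and the PKA subunit gene Prkar1b, at 0.08 ± 0.09, in the authors' deposited table. Standard errors in this striatal list went as low as 0.04, so values near 0 need not mean equal levels if a prior was used. A raw p under 0.05 was reached by 0 of the 29 and 0 of the 19.

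**Figure D5:**
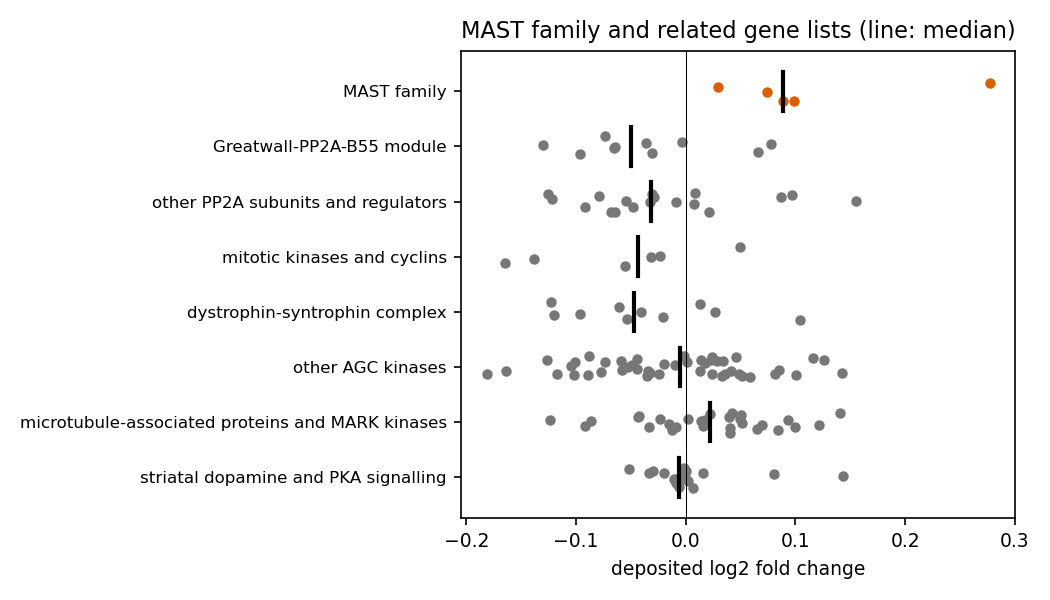
Deposited log2 fold change (horizontal axis) of each MAST gene (orange) and of each gene whose mean normalized count reached 10 in 7 related lists (grey), with a black line for the median. Mast3, at 0.28, lies to the right of every gene of the 7 lists, of which Strn4 is the highest at 0.15.

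Markers of the labelled tissue were present. All 5 neuronal markers (mean normalized counts of 1730 to 13868 in the authors' deposited table), all 7 of cortex (252.5 to 1164) and all 6 of striatum (130.9 to 1052) were well detected, while 3 of 5 cerebellar markers found reached at most 94.4. Of 5 markers of tissues outside the brain, 3 were found, with mean normalized counts of 1.85 to 103.4. All 5 neuronal markers and all 4 endothelial markers had positive signs in the authors' deposited table, with median log2 fold changes of 0.09 and 0.11. Of the 5 astrocyte markers 1 was positive and 4 negative, and of the 5 oligodendrocyte and 5 microglia markers 2 were positive and 3 negative in each set. With the GC and length trend off, 3 astrocyte markers were positive and 2 negative, and 1 microglia marker was positive and 4 negative. Counts for the neuronal, endothelial and oligodendrocyte markers did not change. Among all rows whose mean normalized count reached 10, 48.2% were positive. Of the 7 cortical markers 5 were positive (median 0.03) in the authors' deposited table. Blood markers found numbered 4, with means from 26.7 to 1183, all of positive sign. The 2 of them with a p-value had a median of 0.06. The cortical marker Lamp5, named after its value was seen, had a difference of 0.35 ± 0.10 in the authors' deposited table (raw p = 0.000714, DESeq2 adjusted p = 0.9997). Its statistic, 3.38, was the largest in size in the authors' deposited table, above that of Mast3 (3.29) and of the same sign. The 6 striatal markers had a median of -0.00476 in the authors' deposited table, with 2 positive and 4 negative. With the GC and length trend off, 0 were positive and 6 negative. Their standard errors, 0.04 to 0.07, were low beside the median of 0.10 for all rows. If a prior shrank these rows strongly, values near 0 need not mean equal levels in the genotypes. The part of the markers in the values of the MAST rows was not tested.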

How the data were processed

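Strand-specific libraries were made from total brain RNA without poly(A) selection, per the labels' protocols. Per the submitters' processing notes, the authors used Trimmomatic, Bowtie2, DESeq and DESeq2 on build mm10. The sources used here state no versions, read counter, annotation, filters or depth per sample. The deposited table has 6 columns: the authors' mean normalized count (a signal over all samples), a log2 fold change with its standard error, the Wald statistic (a score), and the p-value and adjusted p-value, all deposited by the authors. The statistic equals the ratio of the fold change to its standard error within 8.27e-07, and the adjusted p a Benjamini-Hochberg adjustment over 15944 rows within 5.33e-12. The mean normalized counts sum to 9226666, the only measure of depth.

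RefSeq names gave symbols through a GRCm38.p6 table for 15857 rows and GENCODE vM21 for 73 more, and transcript GC content and length for 15869 rows. GC content is that of the longest transcript. Detrending used a cubic fit over 13627 rows whose mean normalized count reached 10, tested on simulated data (Python 3.11.15, numpy 2.4.6). Protein sequences were not used here, so likeness was measured on coding bases. The members and the 7 lists were chosen with earlier results of these data known, and 1 list gene is not reported here. Named genes were every member, each module gene, the 2 of smallest p in each of these lists whose mean normalized count reached 10, those with a raw p under 0.05, and rows beside members. Alternatives were other lengths, no filter, a rescaled statistic and the trend taken off.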

Additional observations from a re-analysis of the deposited data

How the results depend on the processing

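No member passed an adjusted p of 0.05 under any alternative run. Over all rows the same count was 0, except for 3 with the GC and length trend off and then rescaled. The smallest adjusted p of a member, that of Mast3, was 0.9997 when adjusted over rows whose mean normalized count reached 10, 0.0809 after rescaling the statistic to its own median and spread, and 0.0794 with the GC and length trend off and then rescaled. The family was chosen by the Mast3 p-value, so these adjusted p-values describe that row again and are no test of it. All 5 signs stayed positive with the trend off. The median statistic of all rows was -0.0496, so taking it off raised every statistic and could not change a positive sign. With coding length in place of the longest transcript, the levels per kilobase were 110.3 for Mast1, 254.3 for Mast2, 554.4 for Mast3, 106.7 for Mast4 and 5.88 for Mastl, in the same order. With the trend off, positive genes went from 2 to 4 in the Greatwall and PP2A-B55 module and from 5 to 8 in the striatal list. With no filter on low counts, mitotic genes went from 1 to 3 positive and from 5 to 9 negative, because more genes were counted. No paired analysis was possible because the genotypes share no replicate number and the table holds no values per sample, which also barred fits without 1 sample. Depth per sample is unknown, so no limit set by depth could be given.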
